A study of Homo sapiens with 6 samples.

Results

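The 9 HLA genes described here lie in the major histocompatibility complex (MHC) on the short arm of chromosome 6. HLA-E, HLA-C and HLA-B are class I genes, and HLA-DRA, HLA-DRB1, HLA-DQA1, HLA-DQB1, HLA-DPA1 and HLA-DPB1 are class II genes. They were chosen by name, together with the 40 kb bins from 29520001 to 33480000 of chromosome 6 in hg19. These were 99 of the 77356 bins of the genome, and 165 protein-coding genes overlapped them. Chromatin contacts were measured by Hi-C, a method that ligates pieces of DNA lying close together in the nucleus and counts the joined pieces by paired-end sequencing. The cells were LNCaP, an established human prostate cancer line of epithelial origin. They were collected 144 h after the first transfection of an siRNA pool at 20 nM, which either had no target (control siRNA, 2 libraries) or was directed at CTCF (CTCF siRNA, 4 libraries). By the methods of the paper, cells were split and transfected again within this time. The labels number the CTCF siRNA libraries 1, 2, 1.1 and 2.1, and whether those numbered 1.1 and 2.1 came from cultures of their own is not given. All libraries of a condition were pooled by the authors into 1 contact map and 1 list of topologically associating domains (TADs, stretches of chromatin that contact themselves more than their neighbours). There was thus no replicate, no p-value was computed, and every interval or SD given here covers counting error only.

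CTCF is a zinc-finger DNA-binding protein that, together with cohesin, holds the bases of chromatin loops and marks many TAD boundaries. Class I molecules present peptides made inside the cell to cytotoxic T cells. HLA-B and HLA-C are classical class I genes, and HLA-E presents leader peptides of other class I chains to receptors on natural killer cells. Class II molecules are pairs of an alpha and a beta chain that present peptides taken up from outside, mainly on professional antigen-presenting cells, so that epithelial cells commonly express little class II unless interferon-gamma induces the transactivator CIITA. Between the class I and class II genes lies the gene-dense class III segment, with complement and cytokine genes such as C4A and TNF. CTCF sites between HLA-DRB1 and HLA-DQA1 and near other class II genes have been described in B cells as bases of loops that join class II promoters. Neither gene expression, the level of CTCF nor its binding was analysed here, so what follows describes chromatin contacts alone.

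The CTCF pool held 4 siRNAs, which are printed because they define the treated condition. They are given 5′ to 3′ as RNA, as the labels list them.
CTCF siRNA 1: gaugaagacugaaguaaug
CTCF siRNA 2: ggagaaagaagaagagua
CTCF siRNA 3: gaagaugccugccacuuac
CTCF siRNA 4: gaacagcccauaaacauag

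Chromatin was cut with BglII, so a read pair can be counted at a gene only through a ligation at one of that enzyme's sites. The site nearest to the annotated start of a member is shown for 5 members, on the plus strand of the hg19 (GRCh37) reference and with the recognition sequence in capitals. These are reference letters and not the sequence of LNCaP.
HLA-E: acggcggctcAGATCTccgagcaaaa
HLA-C: ccatcccgggAGATCTataggagatg
HLA-DRA: atggtacagcAGATCTtatatcatgt
HLA-DRB1: ttcatcccttAGATCTtcacgactgt
HLA-DPB1: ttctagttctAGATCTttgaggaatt
The HLA-E window lay at chr6:30458157-30458182 in an exon, 881 bp downstream of the start. The HLA-C window lay at chr6:31238797-31238822 in an intron, 1095 bp downstream. The HLA-DRA window lay at chr6:32408437-32408462 and the HLA-DRB1 window at chr6:32555392-32555417, both intronic. The HLA-DPB1 window at chr6:33045240-33045265 was intronic to both HLA-DPB1 and HLA-DPA1, which overlap on opposite strands. The 40 kb bins that held the middles of the members carried between 10 sites (HLA-B and HLA-DRB1) and 19 sites (HLA-DQA1 with HLA-DQB1). HLA-DQA1 and HLA-DQB1 shared a bin, as did HLA-DPA1 and HLA-DPB1, so the 9 genes were read through 7 bins.

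Depth differed between the maps, with 26174660 read pairs for control siRNA and 87657920 for CTCF siRNA. Of these, 12916 and 77967 joined places within the MHC bins. A bin was used when neither map gave it under 10% of the contacts of the median chromosome 6 bin, which 98 of the 99 bins did. The bin left out, at chr6:31960001-32000000, holds most of C4A and C4B, near-identical neighbouring genes, and had 0 and 1 contacts.

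Coverage of the MHC, meaning the contacts of a bin within chromosome 6 over the median bin (336 contacts in control and 1066 in CTCF siRNA), differed between the maps. It was higher in CTCF siRNA at 93 of the 98 bins used, with medians of 0.743 and 1.35. The bin of HLA-E had 255 and 1723 contacts, or 0.759 and 1.62 times the median. The bin of HLA-DPA1 and HLA-DPB1 had 319 and 1822 contacts, or 0.949 and 1.71 times the median. The maps differed less at the HLA-DRA bin, with 268 and 939 contacts, or 0.798 and 0.881 times the median. HLA-DRB1 had the thinnest data of all members, with 46 and 177 contacts, or 0.137 and 0.166 times the median. The 4 bins from the end of the HLA-DRA bin to the start of the HLA-DQA1 bin had 46 to 64 contacts in control and 140 to 228 in CTCF siRNA, the part of the class II region that carries HLA-DRB1 and its near-identical paralogues such as HLA-DRB5. Reads that match several of these copies could be lost or split among them. The MHC bins averaged 46.1% G and C against 39.4% for chromosome 6, and across the 98 bins the log2 ratio of the relative coverages went with G and C content (Pearson r = 0.67, a description over bins that share libraries and neighbours). With counts balanced for coverage, the insulation difference at HLA-C was 0.10 instead of 0.39 and that at the telomeric lost boundary 0.81 instead of 1.08 (both described below). Contacts between named genes and segments were therefore set against an expectation that holds the coverage of both bins.

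**Figure D1:**
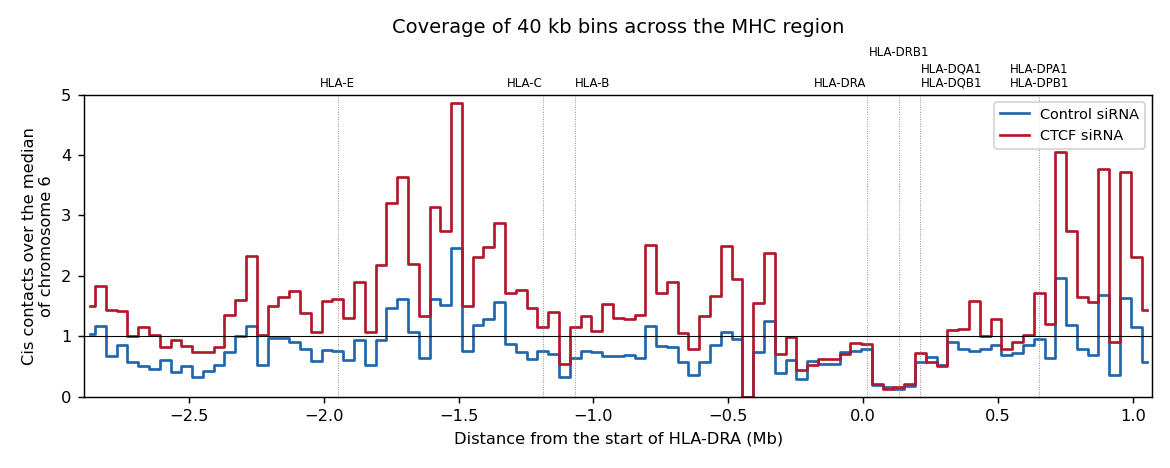
Contacts of each 40 kb bin within chromosome 6, divided by the median bin of the chromosome (y axis), against the distance from the start of HLA-DRA in Mb (x axis), for the pooled control siRNA map (blue) and the pooled CTCF siRNA map (red). Dotted lines mark the bins of the 9 HLA genes. The red line lies above the blue one at 93 of 98 bins, and both drop to 0.137 and 0.166 at HLA-DRB1.

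The class I members shared a TAD in control cells and lay in different TADs after CTCF siRNA. In the control list, HLA-E, HLA-C and HLA-B lay in a TAD of 1320 kb at chr6:30140001-31460000, which ended at MICB, a stress-induced ligand of natural killer cells. In the CTCF siRNA list, HLA-E lay in a TAD of 1640 kb at chr6:28860001-30500000. HLA-C and HLA-B lay in the next TAD, of 1080 kb, at chr6:30500001-31580000. The new edge fell beside HLA-E, in the bin of GNL1, and the end of the HLA-B TAD lay 120 kb further into class III, in a bin with NCR3, AIF1 and PRRC2A. The class III gene TNF, which encodes the cytokine tumour necrosis factor, was in a TAD of 480 kb with other class III genes in the control list (chr6:31460001-31940000) and in the TAD of HLA-B and HLA-C after CTCF siRNA. HLA-F and HLA-G, class I genes nearer the telomere, lay in a TAD of 480 kb at chr6:29660001-30140000 in the control list. After CTCF siRNA they lay in the TAD of HLA-E.

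The 6 class II members shared a TAD of 1240 kb in control cells, at chr6:31980001-33220000, which also held the class III genes C4B and NOTCH4. In the CTCF siRNA list this stretch held 2 whole TADs. HLA-DRA, HLA-DRB1, HLA-DQA1 and HLA-DQB1 lay in a TAD of 680 kb at chr6:32140001-32820000. HLA-DPA1 and HLA-DPB1 lay in a TAD of 280 kb at chr6:32940001-33220000. The genes between these TADs included HLA-DMA and HLA-DMB, which encode the peptide exchanger HLA-DM, and the first of the TADs ended at TAP1, TAP2, PSMB8 and PSMB9, which supply peptides to class I molecules. The 9 members thus lay in 2 control TADs, and of the edges of these, the end of the class II TAD was the one that had a counterpart within 40 kb in the CTCF siRNA list. Over all chromosomes 24.2% of control TADs kept both edges, 49.5% kept 1 and 26.4% kept neither, so the TADs of the members, with 1 and no edge kept, were of common kinds. The class III middle was also cut differently. After CTCF siRNA it held a TAD of 240 kb (chr6:31580001-31820000), inside the control TAD of 480 kb, and a TAD of 320 kb (chr6:31820001-32140000), which ran across the end of that control TAD and into the control TAD of the class II genes.

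**Figure D2:**
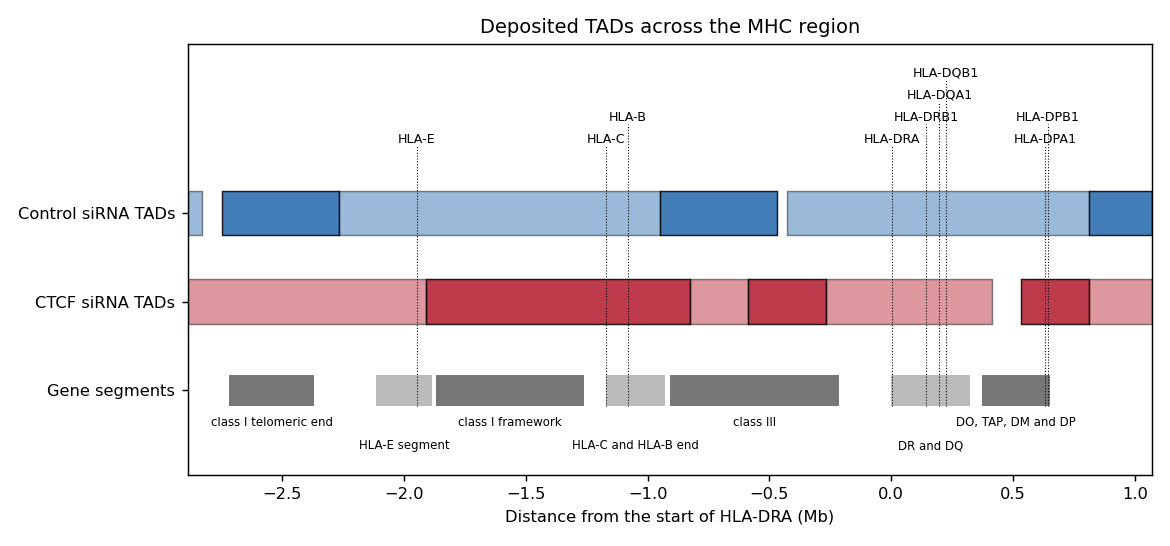
TADs of the deposited control siRNA list (blue, top) and CTCF siRNA list (red, middle) and the gene segments used here (grey, bottom) against the distance from the start of HLA-DRA in Mb. Shades alternate between neighbouring TADs, and bars reaching the border of the plot go on beyond it. The 6 class II genes lie in 1 control TAD of 1240 kb and in CTCF siRNA TADs of 680 kb and 280 kb.

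Counting facing TAD edges within 100 kb as 1 boundary, the control list had 5 boundaries in the region, of which 4 had no counterpart within 40 kb in the CTCF siRNA list. Over all chromosomes 47.4% of control boundaries had none. The CTCF siRNA list had 7 boundaries, of which 6 had no control counterpart, against 36.9% over all chromosomes. With 5 and 7 boundaries these shares are coarse. The boundary common to both lists lay at 33220000, in a bin with VPS52 and RPS18, and closes the class II TADs on the centromeric side.

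The contact counts were then read at each of these positions. The insulation value compares contacts that cross a bin, between the 400 kb on either side, with contacts inside those flanks, each over the count expected at that distance, on a log2 scale. A lower value means fewer crossing contacts. A change of at least 0.5 either way was called, which 12.8% of autosomal bins met upward and 3.77% downward. Of the 98 MHC bins with a value, 15 rose (15.3%) and 3 fell (3.06%), with a median change of 0.13 against 0.02 over the autosomes, so the MHC bins as a set lay close to the background.

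By the insulation value, more contacts crossed the lost boundaries after CTCF siRNA. Contacts between the control TADs on either side, over their bins within the region, were separated upward at 2 of the 4 (given with the segments). The share of neighbouring TADs elsewhere that would be so called was not computed, so that count has no background. Of these 2, the one at the telomeric boundary rests on a single 40 kb bin (chr6:29520001-29560000) of the TAD on its telomeric side. The telomeric boundary spanned several bins, which overlapped ZFP57, MOG and GABBR1. At the one with the lowest control value, chr6:29640001-29680000, the value rose from -1.27 to -0.19, a change of 1.08 ± 0.16 (counting SD). At its other bins, which start at 29560001 and 29600001, the value rose by 0.83 and 0.94. At MICB, where the HLA-B side met class III, it rose from -1.45 to -0.73, by 0.72 ± 0.15. At the boundary beside C4A and STK19, which lay inside class III and opened the control TAD of the class II genes, it rose from -0.86 to -0.34, by 0.52 ± 0.13. This boundary reaches into the C4A and C4B bin that was left out. Its value was therefore read at the bin before, with the bin left out missing from the flank. At the boundary by TRIM10, TRIM15 and TRIM26 the values were -0.61 and -0.23, a difference of 0.39 ± 0.13 that did not reach 0.5. Thus 3 of the 4 lost boundaries reached 0.5. The control list was called from the control map, so these positions were chosen for few crossing contacts in that map, and the count is a description. Over the autosomes 59.9% of lost control boundaries rose by at least 0.5, and 37.1% of the control boundaries found in both lists did as well. The differences at all 4 positions were in the same direction in the 6 settings tried, and the C4A boundary fell below 0.5 in some of them, to 0.31 at the lowest.

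The CTCF siRNA list was likewise called from the CTCF siRNA map, so its gained positions were chosen for few crossing contacts in that map. Of the 6 gained boundaries, 5 had a control value of -0.5 or lower. So did 53 of the 98 MHC bins, and over the autosomes 22.6% of bins and 35.9% of gained boundaries, so low control values were common in the region as a whole. At GNL1, between HLA-E and HLA-C, the values were -1.39 in control and -1.48 in CTCF siRNA, a difference of -0.09 ± 0.12 (-0.22 to 0.02 over the settings). The next bins, which start at 30520001 (also overlapping GNL1) and 30560001, were called downward, from -1.23 to -1.75 and from -0.94 to -1.44. At TAP1, TAP2, PSMB8 and PSMB9, where the TAD of the DR and DQ genes ended after CTCF siRNA, the values were -1.03 and -1.27. This difference of -0.24 ± 0.14 lay between -0.29 and 0.14 over the 6 settings, so its sign was not stable. At HLA-DMA and BRD2, where the TAD of the DP genes began, the values were -0.60 and -0.68, a difference of -0.07 ± 0.12 (-0.11 to 0.15 over the settings). At AGER and PBX2 they were -1.02 and -0.91, a difference of 0.11 ± 0.16. At NCR3, AIF1 and PRRC2A they were -1.17 and -0.75, so that more contacts crossed in the map whose list has the boundary. Of the 6 boundary bins themselves, only that inside class III, with NEU1 and SLC44A4, fell by at least 0.5 (16.7% of gained boundaries over the autosomes), from 0.23 to -0.34, a change of -0.57 ± 0.10 that lay between -0.80 and -0.34 over the 6 settings. At the boundary common to both lists the values were -1.24 and -0.81, a difference of 0.42 ± 0.12.

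Local minima of the insulation value, a reading of boundaries from the counts that was added after the lists had been compared, gave a smaller number of gained positions. Control cells had 7 minima in the region, of which 3 had no counterpart within 1 bin in CTCF siRNA, against 58.7% over the autosomes. CTCF siRNA cells had 6, of which 2 had no control counterpart, against 34% over the autosomes. The minima at PSORS1C1 and CDSN, at DDX39B and at TAPBP lay in the same bin in both maps.

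**Figure D3:**
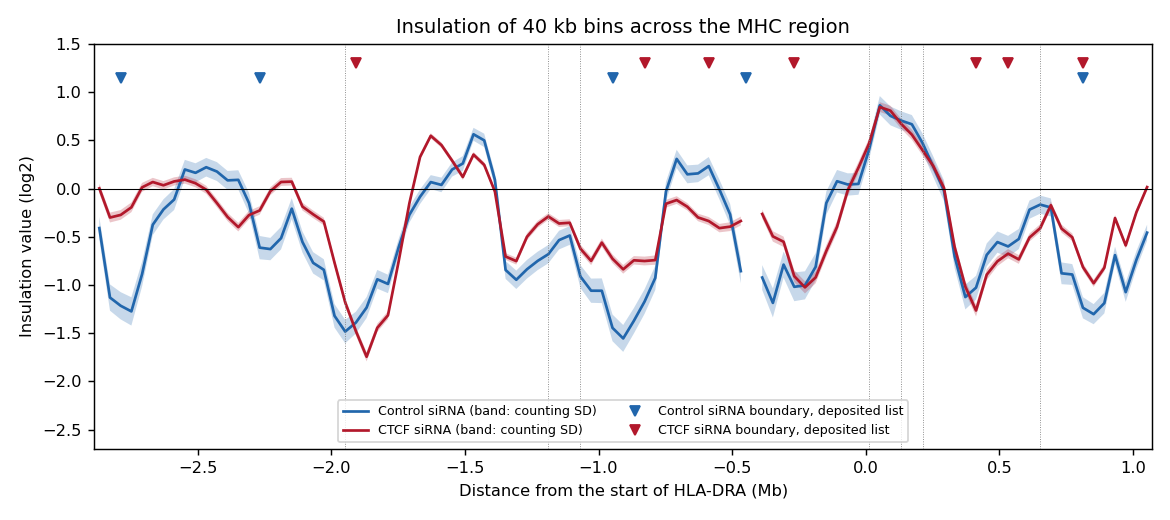
Insulation value (log2, y axis) of 40 kb bins against the distance from the start of HLA-DRA in Mb, for control siRNA (blue) and CTCF siRNA (red), with bands of ± 1 counting SD. Triangles mark boundaries of the deposited lists and dotted lines the bins of the HLA genes. The curves nearly coincide over the DR and DQ genes, and the blue curve lies below the red one at the lost boundaries, by 1.08 at the telomeric one.

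At the members' own bins no insulation change reached 0.5, in any of the 6 settings tried. The 3 class I bins had higher values after CTCF siRNA. The value of HLA-C was -0.68 in control and -0.29 in CTCF siRNA, a difference of 0.39 ± 0.10. That of HLA-E was -1.48 and -1.18, a difference of 0.30 ± 0.13. The HLA-E bin was itself a local minimum in control, and it lay next to the GNL1 bin, which had -1.39 and -1.48. The value of HLA-B was -0.91 and -0.62, a difference of 0.29 ± 0.13. Over the settings these differences ranged from 0.06 to 0.46, all of 1 sign. The bins of HLA-C and HLA-B share much of their flanks, so their values are not separate observations. Over all autosomal bins the change had quartiles of -0.19 and 0.28, so changes of about this size were common.

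Among the class II bins, HLA-DRA (0.41 and 0.47), HLA-DRB1 (0.71 and 0.67) and the bin of HLA-DQA1 and HLA-DQB1 (0.47 and 0.40) had positive values in both maps. The insulation value is not corrected for coverage, which was low at and around HLA-DRB1. The values of these bins differed by 0.06 ± 0.12, -0.03 ± 0.11 and -0.07 ± 0.11, within their counting SD. Their signs were not stable over the settings, where they ranged from -0.42 to 0.28. HLA-DPA1 and HLA-DPB1 had values of -0.17 and -0.41, a difference of -0.24 ± 0.10, over 2 counting SD, that stayed negative in all 6 settings (-0.35 to -0.09). Over whole segments, the median change was -0.01 for the 8 bins of DR and DQ. It was -0.21 for the 6 bins from 32800001 to 33040000, which lie between the bin of HLA-DOB and that of the DP genes. The median was 0.43 for the 6 bins around HLA-E and 0.30 for the 6 bins of the HLA-C and HLA-B end. The class I framework (-0.01 over 16 bins) and the class I telomeric end (-0.11 over 9 bins) did not share the higher values of the other class I segments, and class III had a median of 0.11.

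Contacts between parts of the MHC were counted over 7 segments named by their first and last gene. These were the class I telomeric end (HLA-F to PPP1R11), the HLA-E segment (TRIM39 to GNL1), the class I framework (ABCF1 to POU5F1, a stretch of non-HLA genes), the HLA-C and HLA-B end (HLA-C to MICB), class III (DDX39B to NOTCH4), DR and DQ (HLA-DRA to HLA-DQB2) and the DO, TAP, DM and DP genes (HLA-DOB to HLA-DPB1). A bin belonged to a segment when its midpoint did. This left the bins of HLA-C, of HLA-DQB2, of HLA-DOB with TAP2 and of the DP genes just outside their segments. Counting every overlapping bin instead kept the direction of each pair called. The expected count came from the chromosome-wide decay with distance and from the coverage of both bins, and contacts inside a bin were left out.

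Every segment contacted itself more than expected in both maps, by 1.34 to 1.57 times in control and 1.25 to 1.52 times in CTCF siRNA. How often stretches of such length elsewhere on chromosome 6 do so was not computed, so this has no background. DR and DQ had 146 and 387 contacts within themselves, or 1.53 (95% interval 1.29 to 1.80) and 1.52 (1.37 to 1.68) times the expected count. The ratio of the maps was 0.993 (0.819 to 1.21) and became 0.739 (0.609 to 0.900) with an expectation from distance alone. Within the HLA-C and HLA-B end the counts were 176 and 890, or 1.41 and 1.38 times expected. Within class III they were 1131 and 7066, or 1.57 and 1.45 times expected, a ratio of 0.923 (0.867 to 0.984) that became 1.73 with an expectation from distance alone.

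Class III and the HLA-C and HLA-B end next to it contacted each other less than expected in control and closer to expected after CTCF siRNA. The same held for class III with the class I framework, which lies beyond that end. The HLA-C and HLA-B end and class III had 149 contacts in control and 1303 in CTCF siRNA, which was 0.646 (0.546 to 0.758) and 0.874 (0.828 to 0.923) times expected, a ratio of 1.35 (1.14 to 1.62). The class I framework and class III had 127 and 1457 contacts, or 0.458 and 0.677 times expected, a ratio of 1.48 (1.23 to 1.79). Across the lost MICB boundary, the control TADs on either side had 309 and 3089 contacts with each other, or 0.597 and 0.829 times expected (ratio 1.39, 1.24 to 1.57). Contacts of the HLA-E segment with class III, 9 and 129, gave a ratio of 1.84 with an interval from 0.938 to 4.11, and those of the class I telomeric end, 5 and 82, a ratio of 2.23 (0.919 to 7.06). The single bins of HLA-C (9 and 101 contacts, ratio 1.91, 0.967 to 4.30) and HLA-B (17 and 132, ratio 1.17, 0.703 to 2.07) were not separated in their contacts with class III.

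Within class I, contacts across the GNL1 position were fewer relative to expected after CTCF siRNA. The HLA-E segment and the class I framework had 249 and 1341 contacts, or 0.826 (0.727 to 0.935) and 0.623 (0.590 to 0.657) times expected, a ratio of 0.754 (0.658 to 0.867) that became 1.45 with an expectation from distance alone. The GNL1 boundary of the CTCF siRNA list, at 30500000, fell inside the last bin of the HLA-E segment (chr6:30480001-30520000). The other bins of these 2 segments lie on either side of it. The bin of HLA-E by itself had 65 and 267 contacts with the framework, or 1.03 and 0.619 times expected (ratio 0.602, 0.458 to 0.802). The bin of HLA-B differed in the other direction in its contacts with the other bins of the HLA-C and HLA-B end, 40 and 315, or 0.864 and 1.28 times expected (ratio 1.48, 1.06 to 2.11). These were the 2 of 49 pairs of a gene bin with a segment whose interval left out 1. Of 69150 pairs of a single chromosome 6 bin with a 400 kb block, 3.47% were higher and 3.87% lower by the same rule, so the members' counts of 1 and 1 do not stand apart from the chromosome. With an expectation from distance alone the HLA-E ratio was 1.1 (0.849 to 1.49) and the HLA-B ratio 2.20 (1.58 to 3.14). At the telomeric boundary lost after CTCF siRNA, the control TADs on either side had 15 and 155 contacts with each other, or 0.395 and 0.737 times expected (ratio 1.87, 1.1 to 3.42), counted over their bins within the region. For the TAD on the telomeric side this was a single 40 kb bin, chr6:29520001-29560000, so the ratio does not describe that TAD as a whole. The control TADs on either side of the lost boundary by TRIM10, TRIM15 and TRIM26 had 448 and 2761 contacts, or 0.909 and 0.854 times expected, a ratio of 0.939 (0.849 to 1.04). Those on either side of the lost C4A boundary had 328 and 2306, or 0.960 and 1.07 times expected, a ratio of 1.11 (0.989 to 1.25). Neither ratio was separated from 1, unlike those at the telomeric and MICB boundaries. Inside class III, the CTCF siRNA TADs on either side of NEU1 and SLC44A4 had 294 and 1425 contacts with each other, or 1.94 and 1.27 times expected, a ratio of 0.652 (0.575 to 0.742). The CTCF siRNA TADs on either side of GNL1 had 509 and 3216 contacts, a ratio of 0.891 (0.811 to 0.980) over their bins within the region. Across 2 other gained boundaries the ratio was above 1. The TAD of HLA-C and HLA-B and the class III TAD after it had 221 and 2001 contacts (ratio 1.25, 1.09 to 1.45), and the last class III TAD and the TAD of the DR and DQ genes had 231 and 1332 (ratio 1.16, 1.01 to 1.34). Each list was called from its own map, so its TADs were chosen for few contacts between neighbours in that map. No share of neighbouring TADs called this way elsewhere was computed, so the ratios between TADs have no background.

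The class I framework also had fewer contacts relative to expected with the DO, TAP, DM and DP segment after CTCF siRNA, 27 and 97, or 1.18 (0.777 to 1.72) and 0.720 (0.583 to 0.878) times expected, a ratio of 0.610 (0.395 to 0.972). This pair was not called lower with an expectation from distance alone, where the ratio was 0.969.

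Between the class II segments, no ratio was separated from 1 with the bins used here. DR and DQ with the DO, TAP, DM and DP segment had 62 and 277 contacts, or 0.70 and 0.861 times expected, and the interval of the ratio (0.931 to 1.65) included 1. Leaving out bins under 25% of the median coverage gave a ratio of 1.45 (1.05 to 2.05). The CTCF siRNA TADs of the DR and DQ genes and of the DP genes, which were a single TAD in control, had 139 and 630 contacts with each other, or 0.732 (0.615 to 0.864) and 0.752 (0.695 to 0.813) times expected, so their contacts were already below expected in control (ratio 1.03, 0.854 to 1.24). Class III and DR and DQ had 90 and 446 contacts, a ratio of 1.03 (0.822 to 1.31). Class III contacted the DO, TAP, DM and DP genes, which lie beyond DR and DQ, more than expected in both maps, with 98 and 694 contacts, or 1.58 (1.28 to 1.92) and 1.79 (1.66 to 1.93) times expected. DR and DQ had 0.847 and 0.875 times expected with the same class III bins.

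**Figure D4:**
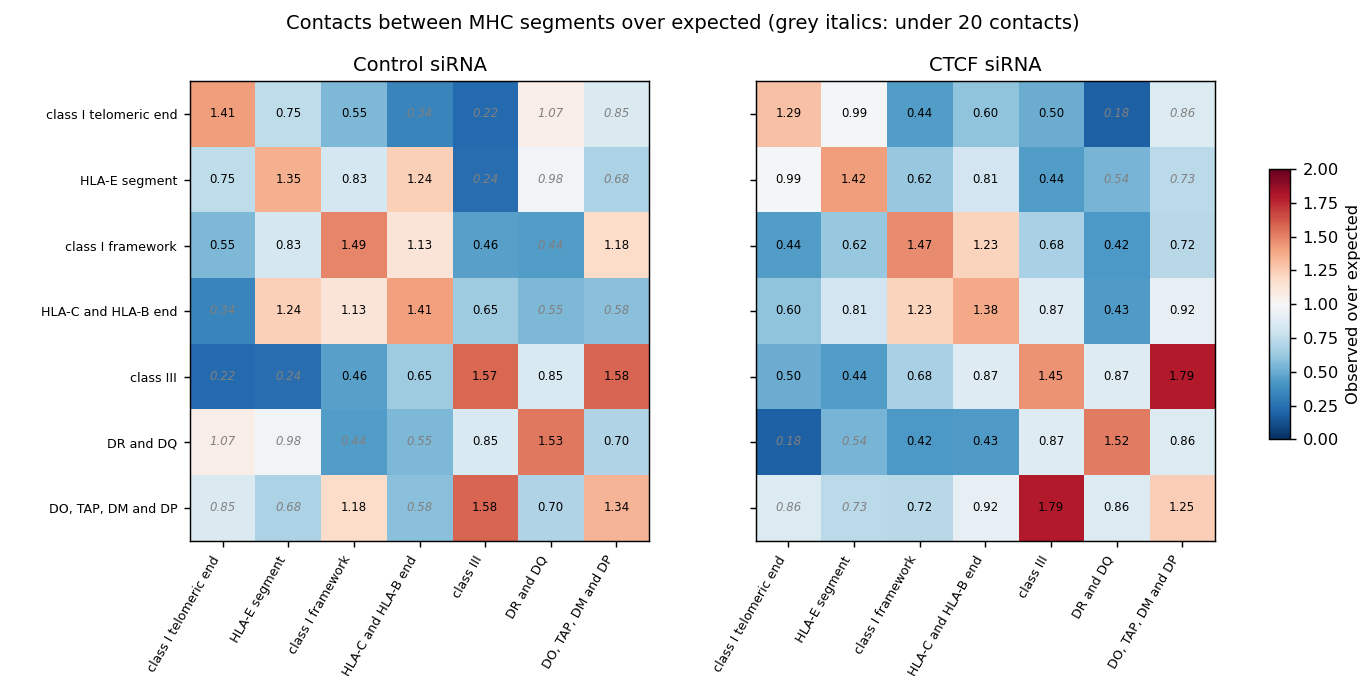
Observed over expected contacts within and between the 7 MHC segments (rows and columns in chromosomal order) in the control siRNA map (left) and the CTCF siRNA map (right). Red is above and blue below expected, and grey italics mark values that rest on under 20 contacts. Class III with the HLA-C and HLA-B end goes from 0.65 to 0.87, and DR and DQ within itself stays at 1.53 and 1.52.

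In all, 2 of the 28 segment pairs were higher and 3 lower after CTCF siRNA, in that the 95% interval of the ratio left out 1, and 23 were not separated. Between blocks of 400 kb along chromosome 6, 15.9% of 3319 pairs were higher and 13.3% lower by the same rule, and the MHC shares rest on few pairs. Blocks and segments differ in size and in counts. The calls rest on the correction for coverage. With an expectation from distance alone, 16 pairs were higher and 1 lower (DR and DQ within itself, not among the 3 above), and the ratio of the HLA-E segment with the framework was 1.45 instead of 0.754.

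**Figure D5:**
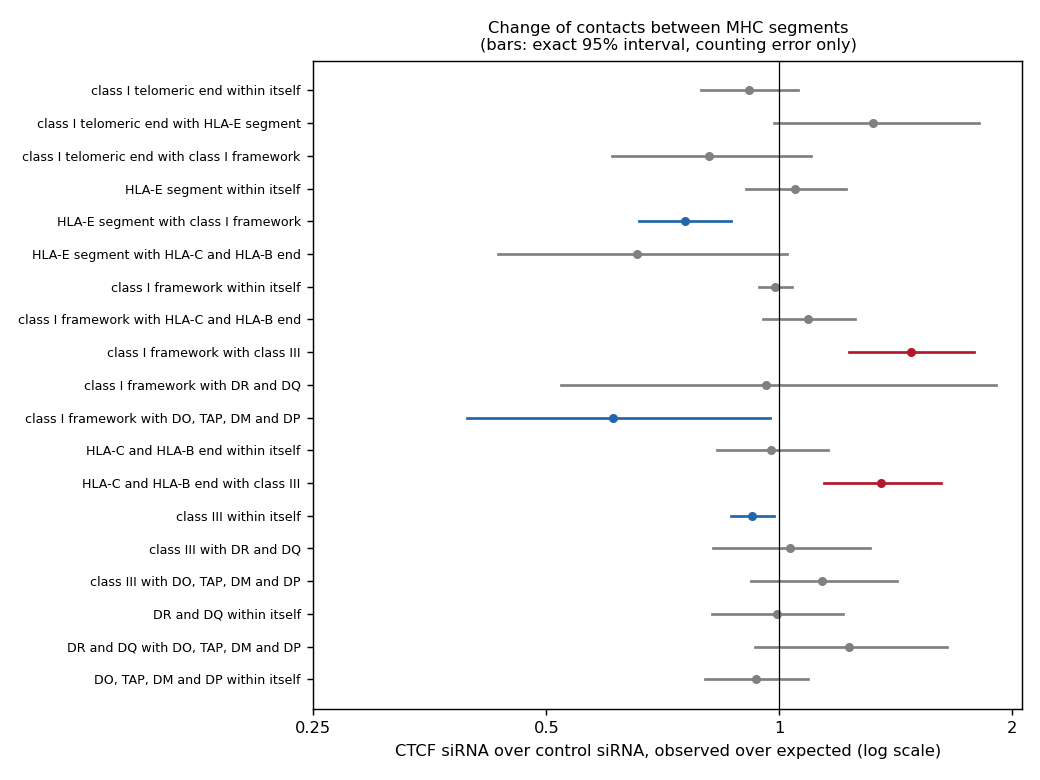
Ratio of CTCF siRNA to control siRNA of observed over expected contacts (x axis, log scale) for the 19 segment pairs with at least 10 control contacts, one row a pair. Points are ratios, bars exact 95% intervals for counting error, red and blue pairs those whose interval lies above or below 1. The 2 red pairs join class III to the class I framework and to the HLA-C and HLA-B end.

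Single bins of the HLA genes gave few contacts with each other. Of the 21 pairs among the 7 bins, 19 had under 5 contacts in control. The 12 pairs of a class I with a class II bin had 3 contacts in all in control and 6 in CTCF siRNA, with at most 2 for any pair, so no change of these could be detected at this depth. The bins of HLA-C and HLA-B, 120 kb apart, had 25 and 63 contacts, or 4.48 (2.90 to 6.61) and 2.36 (1.82 to 3.02) times expected. Their ratio of 0.528 (0.327 to 0.876) was the lone pair of the 21 called lower, and no pair was called higher. Over all bin pairs of chromosome 6 at the distances of the gene pairs 1.37% were called lower, and at the distance of HLA-C and HLA-B 3.49% were called lower and 2.73% higher. With an expectation from distance alone the HLA-C and HLA-B ratio was 0.706 (0.438 to 1.17).

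The HLA-DRA bin and the HLA-DQA1 and HLA-DQB1 bin, 200 kb apart, had 9 and 30 contacts, or 1.73 (0.790 to 3.28) and 1.76 (1.19 to 2.51) times expected. HLA-DRA and HLA-DRB1 had 3 and 15 contacts, and HLA-DRB1 and the DQ bin had 4 and 7. The intervals of all 3 ratios included 1. HLA-DRA, the invariant alpha chain of HLA-DR, had 70 and 165 contacts with the other bins of DR and DQ, or 2.29 (1.79 to 2.90) and 1.92 (1.64 to 2.24) times expected, and the ratio of 0.838 had an interval from 0.630 to 1.1. It had few contacts with the class I framework in both maps, 2 and 10, or 0.216 and 0.213 times expected. The DP bin had 9 and 28 contacts with DR and DQ, or 0.774 and 0.538 times expected.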

How the data were processed

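Hi-C was done on LNCaP cells, and the siRNA named in a label set the group of each library (2 control siRNA, 4 CTCF siRNA). Per the methods, the authors digested chromatin with BglII and ran HiCUP on hg19 with Bowtie as the aligner (1.1.0 in the submitters' processing notes, which also name FastQC 0.11.2, SAMtools 1.2 and Picard 1.121). Duplicates were tagged, and libraries were pooled by condition. They deposited 1 table of 40 kb contacts and 1 list of TADs per condition, the TADs called from a directionality index. The deposited contact values are other than plain counts: each is the number of read pairs times 1 factor for either bin, and the factors depend on the position and not on the chromosome. Within the MHC they ranged from 0.358 to 1.59 in control and from 0.323 to 2.25 in CTCF siRNA. The factors were estimated by least squares and divided out. All 1975 control values and 3487 tested CTCF siRNA values of the MHC came out whole, within 0.0101 or 0.05%. Each pair is listed from both ends and was counted once. The pooling leaves no spread between libraries, so the precision given is that of counting, and duplicates left in would make it too narrow.

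Bins, the distance decay, balancing factors (iterative, whole chromosome), exact Poisson intervals and exact conditional binomial intervals of ratios were computed with Python 3.11.15, numpy 2.4.6 and scipy 1.17.1, and the code was tested on simulated data. All intervals are 95%. A gene was placed in the bin and TAD of its midpoint, by the GENCODE annotation on GRCh37, whose chromosomes fit the bins of the files. Gene starts are those of the outermost annotated transcript. The members, segments and neighbouring genes named were chosen with earlier results of these data known. A further segment is not reported here. Genes at a boundary were those overlapping its bin or bins. Where a boundary spanned several bins, its value was read at the bin lowest in the map of its list. Alternatives changed the flank (200 or 800 kb), the expectation, the bins used and the rule for shared boundaries.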

Additional observations from a re-analysis of the deposited data

How the results depend on the processing

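No paired analysis was possible because the authors pooled the libraries of each condition into 1 map and 1 TAD list, and for the same reason no library could be left out. The counts of boundaries lost (4) and gained (6) were the same when boundaries had to touch and with a tolerance of 80 kb. Joining facing edges over gaps of up to 400 kb gave 4 and 5. Taking local minima of the insulation value in place of the deposited lists, an alternative chosen after seeing the data, gave 3 control minima of 7 without a partner within 1 bin (58.7% over the autosomes) and 2 gained of 6 (34% over the autosomes). The median insulation change over the 7 HLA gene bins was 0.06 and became 0.23 with a flank of 200 kb, -0.11 with 800 kb and 0.23 with the values as deposited. The 2 segment pairs that were higher became 16 with an expectation from distance alone and 4 with the values as deposited. The number of lower pairs, 3, became 1 with distance alone, 5 with segments of all overlapping bins and 5 with the values as deposited. The 1 pair called lower with distance alone was DR and DQ within itself (0.739, 0.609 to 0.900), which was not among the 3. No gene pair (0) was separated with distance alone. With distance alone the ratio also turned above 1 for the HLA-E segment with the class I framework (1.45) and class III within itself (1.73). The ratio of the HLA-E bin with the framework became 1.1, and the gene bins with segments called higher became 9 instead of 1, an alternative added after seeing the data. That expectation leaves the difference in coverage between the maps in the ratio. Decay over the short arm or outside the MHC changed none of these counts by over 1.5 times. Of the 21 gene pairs, 19 had under 5 control contacts.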

Other observations

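Local minima of the insulation value common to both maps lay at chr6:31080001-31120000 (PSORS1C1 and CDSN), chr6:31480001-31520000 (DDX39B) and chr6:33240001-33280000 (TAPBP). At DDX39B the control value was -1.56 and the CTCF siRNA value -0.84. The minimum at the end of the DQ genes lay at 32760001 in control, in the bin of HLA-DOB, and at 32800001 in CTCF siRNA, the next bin. The minimum by HLA-E lay in the bin of HLA-E itself in control and 80 kb further from the telomere in CTCF siRNA, where control had -1.23 and CTCF siRNA -1.75, the lowest of the CTCF siRNA map within the region. These places were picked after their values were seen.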
